A study of Mus musculus with 2 samples.

Results

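Both-strand windows are 1 kb windows of the mouse genome in which RNA was sequenced from the (+) and the (−) strand in both crosses. They were chosen on the values described here. The deposited read depth was averaged over consecutive 1 kb windows of chromosomes 1 to 19 (mm9), and a window was kept where, in each library, the higher strand had a mean depth of at least 1 and the lower strand held at least 10% of the depth of both strands. This rule kept 250 of 9218 transcribed windows, meaning windows whose higher strand reached a depth of 1 in both libraries, which is 2.71% of them. The 250 windows form 195 loci of adjacent windows, of which 157 are single windows, 26 have 2 windows, 8 have 3, 3 have 4 and 1 has 5. Since depth and strand share made the choice, they are given as a description and no test was run on them.

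The libraries came from mouse embryonic fibroblasts (MEFs), cultured from what remains of a 13.5 dpc embryo after removal of head and internal organs. JXO had a JF1/Ms mother and a TgOG2 father, and OXJ was the reciprocal cross with a TgOG2 mother and a JF1/Ms father. JF1 is an inbred strain of *Mus musculus molossinus*, and TgOG2 is a line on a mixed CBA/CaJ and C57BL/6J background that carries an EGFP transgene under the *Pou5f1* promoter, and that line is a parent of both crosses. Each cross was 1 library from female cells at passage 2 or 3, without replicates, so differences between crosses cannot be told apart from differences between embryos or cultures.

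Depth is given as scaled depth, reads covering a base out of every 50000000 that aligned, and 1 read was worth 0.652 in JXO and 0.579 in OXJ. The tracks hold part of each library, namely 5837225 JXO reads (7.61% of all that aligned) and 5785447 OXJ reads (6.7%), in certain stretches of the genome, so a region at 0 was not measured as silent. The fibroblast genes *Col1a2*, *Dcn* and *Lum* had signal over their exons (*Col1a2* 583 in JXO and 388 in OXJ), whereas 7 of 10 fibroblast markers, *Col1a1* and *Vim* among them, and all blood, endothelial and epithelial markers looked at are listed at 0. Of the markers of other cells, the neural progenitor genes *Nes* (340 in JXO and 155 in OXJ) and *Sox2* (1.27 and 1.22), the cartilage genes *Col2a1* (423 and 361) and *Sox9* (2.96 and 3.53), the germ cell gene *Ddx4* (0.98 and 4.14) and the muscle gene *Myod1* (0.105 and 0.0937) had signal. The neuronal gene *Tubb3* and the remaining muscle, cartilage and germ cell markers are listed at 0. Their part in the results was not tested. Among the transcribed windows with exons of 1 strand alone, 5613 of 5662 (99.1%) had that strand as the higher, which checks the direction of the tracks. Intervals are 95% Clopper-Pearson intervals. Those of a strand share within a window count read pairs of 200 bases and cover counting error only, and those of a share of windows count windows.

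Mammalian genes often lie in pairs, either head to head with their start sites close together, or tail to tail so that the ends of both genes meet. Many promoters also give rise to RNA in both directions, and transcription commonly runs on past the site where the message is cut and polyadenylated, so RNA of a neighbour can be found beyond its annotated end. Imprinted domains are known for long antisense RNAs such as *Airn*, and HOX clusters for non-coding RNAs antisense to the homeobox genes.

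Sequences between head-to-head starts are shown first, because windows with starts of both strands were kept more often than other windows. Each is the (+) strand of mm9, 5′ to 3′, between the annotated start of a (−) strand gene on the left and that of a (+) strand gene on the right. Capitals mark GGGCGG (the GC box), CCAAT (the CCAAT box), an ETS core written CCGGAAG, or GCGCATGCG (the core of an NRF1 site), each on either strand, with overlapping matches merged. The stretches are *Nnat*/*Blcap* at chr2:157385744-157385813, *Tubgcp4*/*Zscan29* at chr2:120996862-120996903, *Peg10*/*Sgce* at chr6:4697205-4697305 and *Wdr25*/*Wars* at chr12:110132385-110132481.
Nnat/Blcap: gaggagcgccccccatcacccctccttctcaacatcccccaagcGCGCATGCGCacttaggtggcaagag
Tubgcp4/Zscan29: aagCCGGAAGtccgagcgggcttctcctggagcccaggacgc
Peg10/Sgce: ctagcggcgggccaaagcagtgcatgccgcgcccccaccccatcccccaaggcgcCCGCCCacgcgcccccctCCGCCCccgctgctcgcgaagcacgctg
Wdr25/Wars: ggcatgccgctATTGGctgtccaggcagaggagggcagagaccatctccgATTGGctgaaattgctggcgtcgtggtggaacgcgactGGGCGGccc

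The next sequences lie just before the annotated ends of tail-to-tail genes, the layout of most of the deepest both-strand windows. Each is 30 bases of the gene's own strand, with the polyadenylation signal AATAAA or ATTAAA in capitals. They lie at chr3:95127474-95127503 (*Lass2*, (+)), chr3:95127449-95127478 (*Setdb1*, (−)), chr11:106124399-106124428 (*Psmc5*, (+)), chr11:106124500-106124529 (*Smarcd2*, (−)), chr17:46820014-46820043 (*Mea1*, (+)) and chr17:46819942-46819971 (*Ppp2r5d*, (−)).
Lass2: tattaaaggttaAATAAAacatgactgtgt
Setdb1: taatatactttaATTAAAaaaaattaacag
Psmc5: ccccccccaaccAATAAAggtctgtgtgat
Smarcd2: tggaaaattccaAATAAAtctttttgttta
Mea1: cactctgtggagAATAAAgcaccctgtgta
Ppp2r5d: tgtacagaactgAATAAAgtgggtctctga
*Lass2* and *Setdb1* overlap tail to tail, so their signals lie close together on opposite strands.

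The lower strand of the both-strand windows held a median of 18.9% of the depth in JXO and 18.2% in OXJ, where the median over all transcribed windows was 1.82% and 2.54%. In depth, the lower strand of the kept windows had a median of 0.976 in JXO and 0.718 in OXJ (all transcribed windows 0.13 and 0.119), and the higher strand 3.41 and 2.43 (all 5.17 and 3.77). The larger share on the lower strand was required by the rule and is no result. The median depth of the higher strand was below that of all transcribed windows. At least 20% of the depth lay on the lower strand in both libraries in 82 of the 250 windows, and at least 40% in 11. The signal behind the lower strand was thin in many of them, with a median of 15 read lengths (100 bases each) in JXO and 12.4 in OXJ, and 129 of 250 windows had under 10 read lengths in at least 1 library. A lower-strand depth of 1 or more in both libraries was reached by 79 windows.

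**Figure D1:**
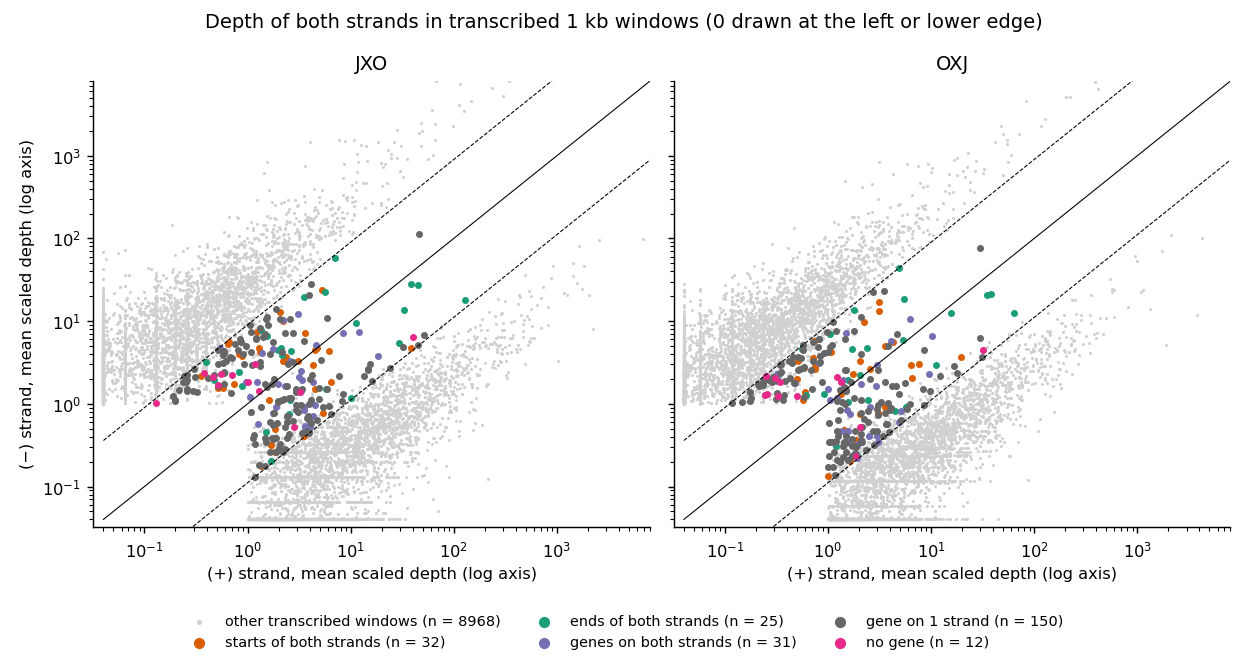
Mean scaled depth of the (−) strand (vertical, log axis) against the (+) strand (horizontal, log axis) in JXO (left) and OXJ (right), with 1 point per transcribed window and the 250 both-strand windows in colour. The both-strand windows fill the band near the diagonal, and the deepest windows of the tracks lie outside it.

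The share of windows kept fell with depth. It was 112 of 2785 windows (4.02%) with the higher strand at 1 to 2 in the library where it was lower, 87 of 2607 (3.34%) at 2 to 5, 41 of 2497 (1.64%) at 5 to 20 and 10 of 1051 (0.951%) at 20 to 100. None of the 278 windows at 100 or more was kept. In those 278 windows the lower strand had a median share of 2.21% in JXO and 2.69% in OXJ, and 95% of them were at or under 5.53% and 6.67%. These values give the level of opposite-strand signal in the deepest windows alone, and the limit of 10% lies above it there. No kept window was that deep, so they do not give the level at the depths of the kept windows.

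Windows just inside the limit, by the smaller of their shares, were at *Arhgap23* (10.0%), *Numa1*, *Ext1*, *Mea1*/*Ppp2r5d* and *Csrnp2* (10.1% each). Just outside were windows at *Grb10* (9.96%), *Bola3* (9.95%), *Zscan29* (9.95%), *Ppfia1* (9.94%) and *Gm17675*/*Zfp106* (9.91%). The (+) share of a kept window differed between the libraries by a median of 5.38 percentage points and by at most 39.0, where the median over all transcribed windows was 1.51 points. In 187 of 250 windows it differed by under 10 points. A small lower-strand share leaves little room to differ, so the contrast with all transcribed windows follows in part from the rule.

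The layout of annotated genes (GENCODE M1) was not used to choose the windows. Every window was put in the first layout that held: starts of genes of both strands within 500 bases, ends of genes of both strands within 500 bases, genes on both strands, a gene on 1 strand, and no gene. Of the transcribed windows with starts of both strands 32 of 155 (20.6%) were both-strand windows, and of those with ends of both strands 25 of 134 (18.7%). The share was 31 of 421 (7.36%) for other windows with genes on both strands, 150 of 8055 (1.86%) for a gene on 1 strand and 12 of 453 (2.65%) for no gene. Facing starts and facing ends thus stood far above the 2.71% of all windows, while 150 of the 250 windows had an annotated gene on 1 strand alone.

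**Figure D2:**
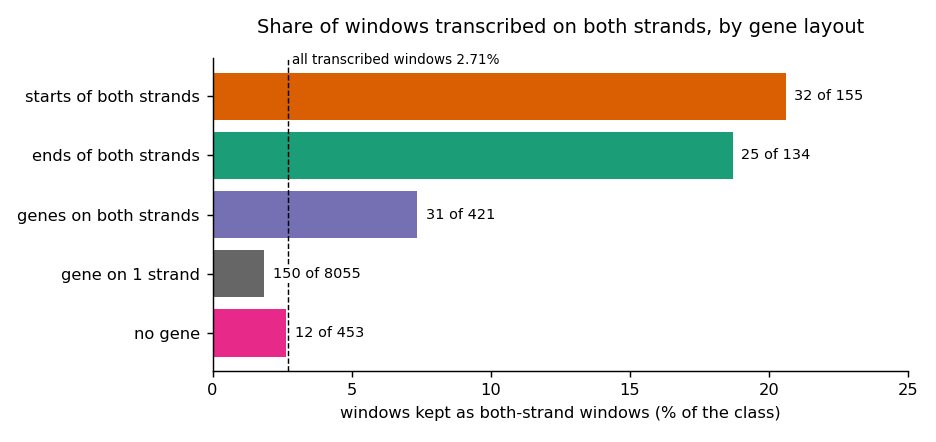
Percentage of transcribed windows kept as both-strand windows (horizontal axis) in each gene layout (bars from 0), with the number kept and the number in the class beside each bar and a dashed line at 2.71%, the share over all windows. Starts and ends of both strands stand at 20.6% and 18.7%, and windows with a gene on 1 strand at 1.86%.

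Counted without regard to this order, 79 of 250 both-strand windows (31.6%, interval 25.9 to 37.8%) had annotated genes on both strands, against 6.74% of all transcribed windows. Protein-coding genes lay on both strands in 17.6% (13.1 to 22.9%) against 2.74%, and exons in 18% (13.4 to 23.3%) against 3.14%. A start of each strand inside the window itself was found in 7.2% (4.32 to 11.1%) against 0.868%, and an end of each strand in 6.4% (3.7 to 10.2%) against 0.683%. At least 1 start of either strand lay within 500 bases of 43.2% of the windows, against 20.5% of all. Intervals over windows treat them as independent, which neighbouring windows of 1 locus are not.

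The position of the signal inside a window was not used by the rule either. In the 32 windows with starts of both strands, the centre of the (+) signal lay a median of 300 bases to the right of the centre of the (−) signal in JXO and 245 bases in OXJ. It lay to the right in both libraries in 26 of 32, the order of RNAs that leave a shared start region. In the 25 windows with ends of both strands the (+) centre lay to the left, by a median of −379 bases in JXO and −328 in OXJ, in both libraries in 22 of 25. For other windows with genes on both strands the medians were −2.69 and −13.4 bases, and for windows with a gene on 1 strand 10.7 and 17.8. The layouts with facing starts and facing ends thus differed from each other in the sign of this offset, and the remaining layouts had medians near 0.

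**Figure D3:**
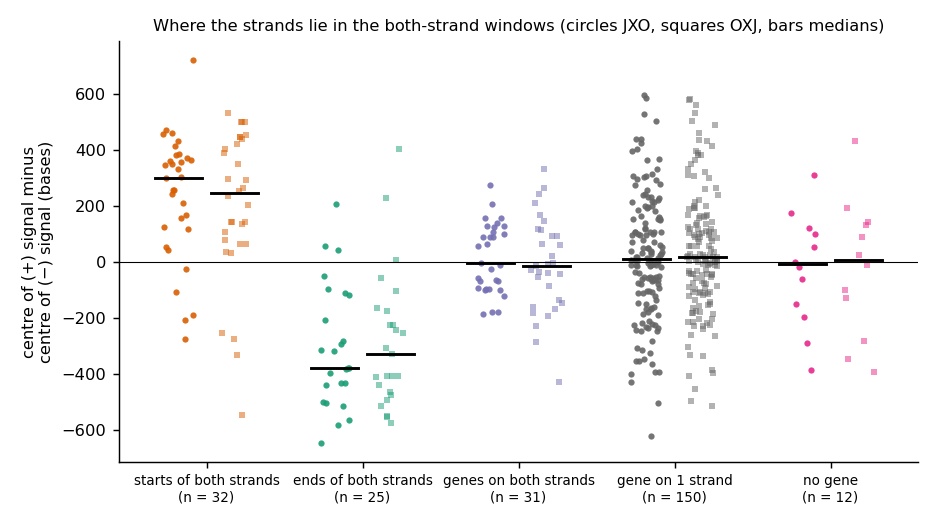
Distance in bases between the depth-weighted centres of the (+) and (−) signal (vertical axis) in each both-strand window by gene layout, with circles for JXO, squares for OXJ and bars at the medians. Values lie mostly above 0 for starts of both strands (medians 300 and 245) and mostly below 0 for ends of both strands (medians −379 and −328).

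Most lower-strand signal lay on bases that the higher strand also covered, but a smaller part than over all transcribed windows. Of all lower-strand signal in the both-strand windows, 83.0% in JXO and 84.0% in OXJ lay on bases that the higher strand also covered, where it was 97.9% and 98.5% over all transcribed windows. The higher strand covered a median of 73.7% of a kept window in JXO and 77.4% in OXJ, against 83.5% and 85.4% of all. The rule used the same signal, so this contrast is a description and no result. By layout the part on shared bases was 78.3% and 79.3% for starts, 79.9% and 86.3% for ends, 91.9% and 89.7% for other genes on both strands, and 83.9% and 82.5% for a gene on 1 strand. The highest overlap was thus found inside overlapping genes.

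Facing starts were examined as 31 pairs of genes. Of these, 7 overlapped and 24 were apart, 20 of them by up to 300 bases, and 14 pairs were protein-coding on both sides. Over the 500 bases downstream of each start the median depth on the gene's own strand was 3.16 on the (+) side and 6.91 on the (−) side in JXO, and 1.58 and 5.58 in OXJ. Over the 500 bases upstream it was 0.322 and 0.826 in JXO, and 0.311 and 0.338 in OXJ. The depth inside was higher than outside on both sides in 23 of 31 pairs in each library.

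The window at *2810002N01Rik*/*Bag5* (chr12:112951001-112952000) had nearly equal strands, with starts 3 bases apart. *Bag5* encodes a co-chaperone of HSP70. The window had a (+) depth of 4.71 and a (−) depth of 4.73 in JXO, and 4.28 and 5.55 in OXJ, so that the lower strand held 49.9% (38.0 to 62.0%) and 43.6% (32.8 to 54.7%). Over its exons, *Bag5* stood at 47.3 in JXO and 39.6 in OXJ, and *2810002N01Rik* at 1.32 and 0.978, so equal depth at the shared start stood beside unequal depth over the exons.

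At *Smarcd1*, which encodes a subunit of the SWI/SNF chromatin remodeller, the start lies inside the short coding gene *Gm17349* of the other strand, and the window (chr15:99532001-99533000) had 3.10 on (+) and 3.28 on (−) in JXO and 2.57 and 2.65 in OXJ. The lower strand held 48.6% (34.4 to 63.7%) and 49.2% (33.7 to 64.2%). The window in front of *Glrx5* (chr12:106270001-106271000), a glutaredoxin of iron-sulphur cluster assembly, had 4.50 and 4.51 in JXO and 6.33 and 2.91 in OXJ. In these windows the strands were equal within counting error in JXO, and *Glrx5* had the (+) strand higher in OXJ. At *Mtap6* (chr7:106416001-106417000), a microtubule-associated protein gene, (+) and (−) were 6.17 and 4.36 in JXO and 7.61 and 3.07 in OXJ.

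Among the other pairs whose sequences are printed above, *Tubgcp4* and *Zscan29*, a zinc finger gene, shared a window (chr2:120996001-120997000) with 2.05 on (+) and 13 on (−) in JXO and 2.24 and 9.68 in OXJ. Over the 500 bases downstream of either start, *Tubgcp4* RNA stood at 17.6 in JXO and 12.5 in OXJ and *Zscan29* RNA at 15.7 and 11.5, so the genes were close to each other in depth where the window, which ends near this start of *Tubgcp4*, was mostly (−). *Wars*, the tryptophanyl-tRNA synthetase gene, stood at 7.65 and 4.33 downstream of its start beside 1.24 and 0.937 for *Wdr25*. The *Wars* and *Tubgcp4* pairs are among those with GGGCGG or CCGGAAG between the starts.

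Imprinted genes were among the facing starts. At *Peg10*, a retrotransposon-derived gene, and *Sgce*, which encodes epsilon-sarcoglycan (chr6:4697001-4698000), the (+) and (−) depths were 4.27 and 2.95 in JXO and 6.57 and 2.04 in OXJ, with lower shares of 40.9% (28.7 to 55.9%) and 23.7% (15.1 to 35.7%). *Nnat*, a small membrane protein gene, is nested in *Blcap* on the other strand, and all 4 windows from chr2:157385001 to 157389000 were kept. Their (+) depth was 3.58, 2.34, 38.7 and 11.3 in JXO, with (−) depths of 7.28, 3.70, 4.72 and 9.62. In OXJ the (+) depths were 3.54, 2.04, 19.7 and 5.30, and the (−) depths 5.02, 3.29, 3.66 and 5.87. The (+) signal, on the strand of *Nnat*, was highest in the third window, while the (−) signal on the strand of *Blcap* ran through all 4 windows within a range of 3.29 to 9.62.

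*Igf2* and *Igf2as*, the gene of a fetal growth factor and its antisense RNA, had 1 both-strand window (chr7:149846001-149847000), with 5.33 on (+) and 23.7 on (−) in JXO and 3.13 and 16.9 in OXJ. *Gnas*/*Nespas* had 1 window too (chr2:174110001-174111000), with 0.821 and 3.96 in JXO and 0.585 and 2.70 in OXJ.

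The both-strand windows with facing starts had a median GC content of 59.4%, against 56.3% of all 155 transcribed windows of that layout, and all both-strand windows had a median of 50.4% against 45.6% of all transcribed windows. A GC content of 60% or more was found in 15.6% of both-strand windows (11.3 to 20.7%) against 3.67%. The median number of CG dinucleotides was 16 per window against 11, and their observed over expected ratio 0.275 against 0.226. Among the sequence words searched on both strands, GGGCGG was found in 27 of the 32 windows with facing starts (84.4%) against 19.3% of all transcribed windows, and CCGGAAG in 8 (25%) against 5.77%. GCGCATGCG was found in 2 (6.25%) against 0.445%, AAGATGGCG, the core of a YY1 site, in 1 (3.12%) against 0.727%, and CCAAT in 23 (71.9%) against 72.2%. TATAAA was found in 5 (15.6%) against 48.9%. These shares were set against all transcribed windows, not against that layout alone. A match gives the letters only and no bound factor was measured here.

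Facing ends gave 23 pairs of genes, 6 overlapping and 17 apart, with a median distance of 119 bases over all pairs, and 17 pairs were protein-coding on both sides. Median depth over the last 500 bases before the end was 25 on (+) and 8.60 on (−) in JXO and 13.4 and 5.95 in OXJ, and over the 500 bases beyond it 0.877 and 1.30 in JXO and 0.624 and 1.06 in OXJ. By these medians most of the signal lay inside the annotated genes and a small remainder beyond their ends. The depth inside was higher than outside on both sides in 17 of 23 pairs in JXO and in 19 in OXJ. AATAAA or ATTAAA stood within the last 50 bases of 30 of the 46 ends, and on both sides in 10 of 23 pairs. These ends were not set against other annotated ends. Over the whole window AATAAA was found on both strands in 44.0% of the windows with facing ends against 22% of all, and ATTAAA in 24% against 17.6%. On either strand, the measure used for the facing starts, AATAAA was found in 88.0% against 66.0% and ATTAAA in 56.0% against 57.4%.

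*Lass2*, a ceramide synthase gene, and *Setdb1*, which encodes a histone H3 lysine 9 methyltransferase, overlap by 64 bases at their ends, whose sequences are given above. Their window (chr3:95127001-95128000) had 44.7 on (+) and 27.5 on (−) in JXO and 37.9 and 21.5 in OXJ. The lower strand held 38.1% (34.0 to 42.3%) and 36.2% (32.1 to 40.6%). *Lass2* RNA stood at 87.0 in JXO and 73.6 in OXJ over its last 500 bases and at 1.52 and 1.21 over the next 500, and *Setdb1* RNA at 45.8 and 36.0, and at 2.01 and 1.29. Depth beyond either end was thus a small part of that before it.

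*Psmc5*, an ATPase subunit of the proteasome's regulatory particle, and *Smarcd2*, another SWI/SNF subunit, end 58 bases apart (chr11:106124001-106125000). The (+) and (−) depths were 38.3 and 27.9 in JXO and 35.1 and 20.7 in OXJ, with lower shares of 42.1% (37.8 to 46.6%) and 37.1% (32.7 to 41.5%). Depth past the end was 0.391 in JXO and 0.616 in OXJ for *Psmc5* and 4.68 and 6.34 for *Smarcd2*. The (−) signal past the end of *Smarcd2* was not continuous with it. In 50-base bins it was 0 in JXO and 0.579 in OXJ just before the centre of the window, and 12.9 and 19.3 farther into *Psmc5*, where the (+) depth was 266 and 226. Over all exons of *Psmc5* the antisense depth was 13 in JXO and 11.3 in OXJ beside a sense depth of 297 and 204, so (−) signal on the *Psmc5* side lay where *Psmc5* itself was deep.

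*Mest*, an imprinted gene of the alpha/beta-hydrolase fold family, runs into *Copg2*, a coatomer subunit gene. The window at their ends (chr6:30698001-30699000) had 128 on (+) and 18.1 on (−) in JXO and 64 and 12.7 in OXJ. The next 2 windows, inside *Copg2* and past the annotated end of *Mest*, had (+) depths of 5.89 and 5.17 in JXO and 4.69 and 3.07 in OXJ, with (−) depths of 10.9 and 3.4, and 7.03 and 2.58. The (+) depth past the end was thus a small part of that before it, and in the last of these windows (+) was the higher strand in both libraries.

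At *Tubgcp4*, a component of gamma-tubulin complexes, and *Trp53bp1*, a gene of the response to DNA breaks (chr2:121024001-121025000), the depths were 32.9 and 13.6 in JXO and 15.7 and 12.6 in OXJ. The lower share was 29.3% (24.7 to 34.4%) and 44.5% (38.3 to 51.1%), so the intervals of the 2 libraries did not overlap. *Slc48a1*, a heme transporter gene, and *Hdac7*, a class IIa histone deacetylase gene (chr15:97623001-97624000), had 5.59 and 22.7 in JXO and 5.40 and 18.7 in OXJ. *Mea1* and *Ppp2r5d*, the latter a regulatory subunit of protein phosphatase 2A (chr17:46820001-46821000), had 7 and 58.2 in JXO and 4.93 and 43.9 in OXJ. In both, the window lay mostly on the (−) gene's side of the shared end, and the (−) strand was the higher in both libraries.

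*Inpp5f*, a phosphoinositide phosphatase gene with an imprinted isoform, and *Mcmbp* end 15 bases apart (chr7:135839001-135840000), with 29.2 and 5.40 in JXO and 11.2 and 2.92 in OXJ. A second window inside *Inpp5f* (chr7:135837001-135838000) had 16.0 and 1.89 in JXO and 5.56 and 1.78 in OXJ, and *Mcmbp* ends 1955 bases upstream of it on the (−) strand. Inside *Inpp5f* the (+) depth was lower in OXJ than in JXO, beside (−) depths of 1.89 and 1.78.

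**Figure D4:**
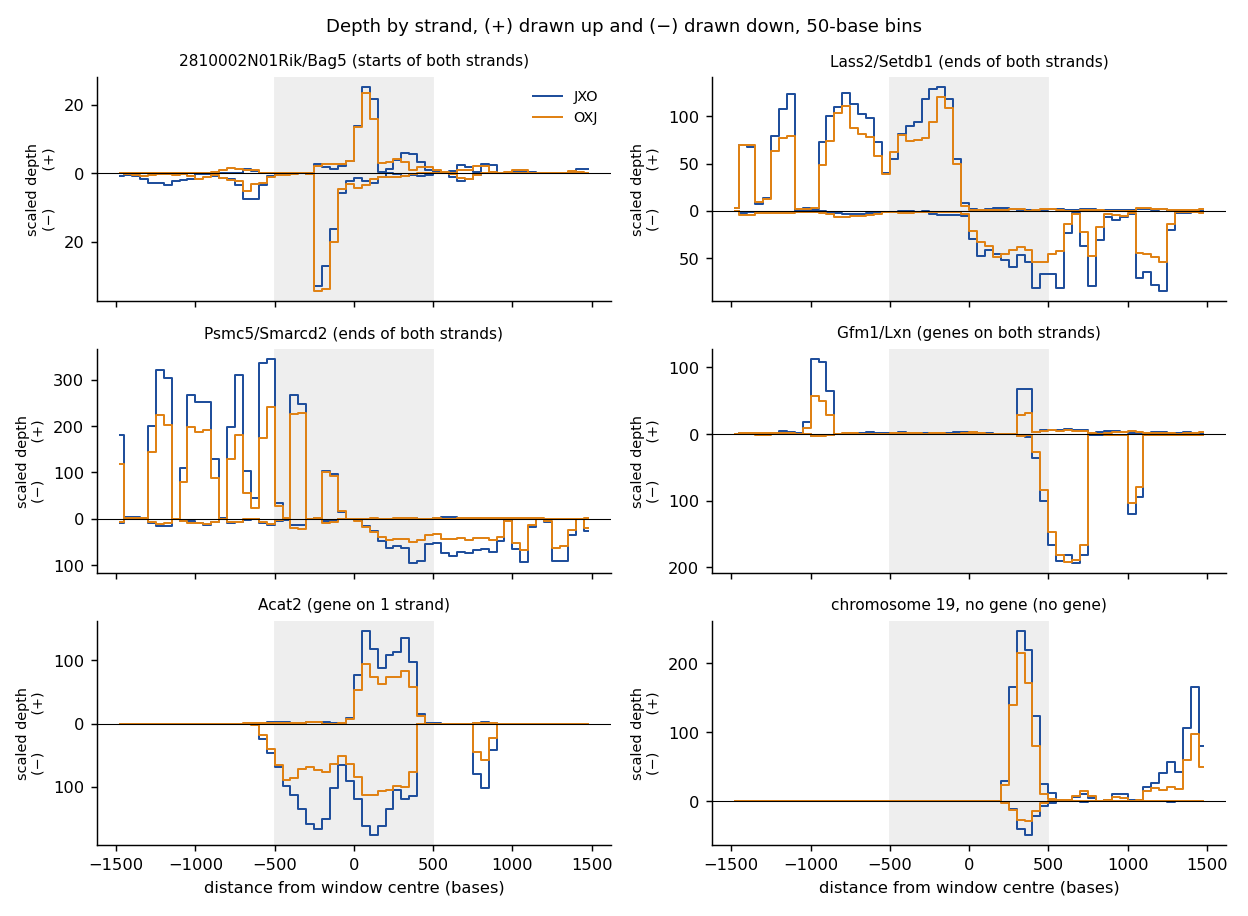
Scaled depth in 50-base bins, (+) drawn up and (−) drawn down, against the distance in bases from the centre of the window, for 6 loci in both libraries. The strands of *2810002N01Rik*/*Bag5* lead away from the centre, those of *Lass2*/*Setdb1* and *Psmc5*/*Smarcd2* meet at the ends, and those of *Acat2* and the window of chromosome 19 overlap. In *Gfm1*/*Lxn* both strands lie at the right edge of the window.

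Of the 31 other windows with genes on both strands, 11 lay in *Airn*, the long antisense RNA of the imprinted *Igf2r* domain, where it overlaps *Igf2r*, the mannose 6-phosphate and IGF2 receptor gene. With a window at the start of *Igf2r* there were 12 in 6 loci, of 56 transcribed windows of *Airn* (21.4%). In the window chr17:12941001-12942000 the (+) depth was 3.11 in JXO and 6.21 in OXJ and the (−) depth 12.2 and 10.5. At the start of *Igf2r* (chr17:12962001-12963000) the (−) depth was 9.94 and 13.2 beside 2.22 and 3.13 on (+). In the other 10 windows the (+) strand had a depth between 1.05 and 4.53 in JXO and between 1.36 and 5.12 in OXJ, and the (−) strand between 0.540 and 2.47, and between 0.328 and 0.926. Antisense RNA was thus the higher strand in most of these windows, beside thin (−) signal, and the (−) strand was the higher where it was deepest.

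*Lxn*, which encodes the carboxypeptidase inhibitor latexin, lies inside *Gfm1*, a mitochondrial elongation factor gene, on the opposite strand. In the window with the annotated end of *Lxn* (chr3:67261001-67262000) the (+) and (−) depths were 8.42 and 7.25 in JXO and 4.12 and 5.77 in OXJ, with lower shares of 46.3% (37.5 to 56.0%) and 41.7% (31.7 to 53.6%). A second window (chr3:67263001-67264000) had 2.59 and 3.32 in JXO and 2.09 and 1.73 in OXJ, and another (chr3:67266001-67267000) had 2.23 and 10.2, and 1.49 and 7.10. The (+) strand was highest in the first of these windows and the (−) strand in the last, in both libraries.

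*Mab21l1*, a gene of eye development, lies inside *Nbea*, the neurobeachin gene, on the opposite strand. Its 3 windows (chr3:55586001-55589000) had mean (+) and (−) depths of 3.63 and 1.97 in JXO and 1.85 and 2.03 in OXJ. Exons of *Nbea* stood at 0.113 in JXO and 0.173 in OXJ. Exon bases outside the stretches that the tracks hold count as 0 in these values. They therefore cannot be set against the (−) signal over *Mab21l1*.

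At the end of *Eif3j*, a translation initiation factor gene, which overlaps *Spg11*, the spatacsin gene, 2 windows (chr2:121880001-121882000) had mean depths of 15.2 and 5.54 in JXO and 9.87 and 4.46 in OXJ. *Spg11* held 11 both-strand windows in 3 loci, more than any other gene but *Airn* and *Igf2r*. Past the annotated end of *Eif3j*, the 5 windows chr2:121883001-121888000 had mean (+) and (−) depths of 2.89 and 3.38 in JXO and 2.19 and 2.30 in OXJ, and the 4 windows chr2:121889001-121893000 had 1.64 and 5.01, and 1.02 and 3.46. These 9 windows start up to 9667 bases past the end of *Eif3j*, and no (+) strand gene is annotated in them. The mean (+) depth was lower in the farther run of windows in both libraries.

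Such a neighbour upstream was more common among both-strand windows than among all. Of 153 both-strand windows with no annotated gene on the lower strand, 13 (8.5%, 4.6 to 14.1%) had a gene of that strand ending within 1000 bases upstream, against 1.62% of the 8446 transcribed windows of this kind. Within 5000 bases it was 43 (28.1%, 21.1 to 35.9%) against 8.9%, and within 10000 bases 71 (46.4%, 38.3 to 54.6%) against 18.1%. The rest had no annotated end of that strand within 10000 bases. Whether the lower-strand signal belongs to transcripts of those neighbours was not tested.

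Among the 150 windows with a gene on 1 strand, the gene's strand was the higher in 134 (89.3%, 83.3 to 93.8%), against 98.3% of all transcribed windows of this layout. A start lay within 500 bases of 40.7% of them against 19.3%. *C78339* (chr13:46773001-46774000) had 51.1 on its own (+) strand and 6.86 on (−) in JXO and 29.7 and 6.22 in OXJ, with lower shares of 11.8% (9.05 to 15.3%) and 17.3% (13.3 to 22%). *Nup153*, a nuclear pore gene of the (−) strand, ends 1271 bases upstream of this window on the strand of the lower signal. *Copz2*, a coatomer subunit gene (chr11:96715001-96716000), had 45 and 5.11 in JXO and 30.9 and 3.70 in OXJ, and the nearest (−) gene upstream ends 8311 bases away. *Numa1*, a gene of the mitotic spindle, held 9 windows in 5 loci, 8 of them of this layout and 1 with facing ends, of which chr7:109160001-109161000 had 3.39 and 1.52 in JXO and 3.23 and 1.04 in OXJ. *Peg3*, an imprinted zinc finger gene of the (−) strand, had 1 window (chr7:6683001-6684000) with 1.32 on (+) and 2.86 on (−) in JXO and 1.49 and 2.55 in OXJ. Most of that window lies upstream of *Peg3*, whose annotated start is at chr7:6683132.

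The deepest lower strand of all both-strand windows lay in *Acat2*, which encodes cytosolic acetoacetyl-CoA thiolase (chr17:13136001-13137000). The (+) depth was 46.3 in JXO and 30 in OXJ and the (−) depth, the strand of *Acat2*, 113 and 75.8, so the lower strand held 29.2% (26.6 to 31.8%) and 28.3% (25.4 to 31.4%). A stretch of 545 bases of this window has a copy at 96.9% identity at chr17:13117254-13117789, where *Tcp1*, a chaperonin subunit gene of the (+) strand, and *Acat3* meet. Within that stretch lay 98.4% of the (+) signal of the window in JXO and 98.5% in OXJ. At the copy the (+) strand reached a depth of 425 and 248. Reads could be placed at up to 10 loci, so (+) signal of *Acat2* and of *Tcp1* cannot be told apart here.

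Copied sequence was found in a few other deep windows. In *Mga* (chr2:119781001-119782000), a (+) gene of a MAX-binding transcription factor, the (−) strand was the higher at 28.3 in JXO and 23.4 in OXJ beside 4.14 and 3.51 on (+). All of this (−) signal lay in 346 bases identical to *Ptcd3*, a gene of the mitochondrial ribosome on chromosome 6. In *Larp4* (chr15:99840001-99841000) 75.4% of the (−) signal in JXO and 94.5% in OXJ lay in a stretch like *Dpf2* of chromosome 19. A *Wdr76* window (chr2:121357001-121358000) has a copy over its full length at *Mfap1a* of the same chromosome, and both *Eif3j* windows have full-length copies at 99.7% and 99.3% identity on another chromosome. Over all both-strand windows, 13 (5.2%, 2.8 to 8.73%) had at least 20% of their 50-base words again elsewhere in mm9, against 3.19% of all transcribed windows. A stretch of at least 200 bases with at least 90% identity to a coding transcript of another gene was found in 14 (5.6%) against 377 of 9218 (4.09%). Without both kinds 229 windows were left of 8721 (2.63%).

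Windows without any annotated gene numbered 12. The deepest was chr19:37858001-37859000, with 40.5 on (+) and 6.50 on (−) in JXO and 31.9 and 4.49 in OXJ, and lower shares of 13.8% (10.5 to 17.9%) and 12.3% (8.95 to 16.5%). Its signal lay in a stretch of 265 bases with 95.8% identity to the transcript of *Psmc1*, a proteasome ATPase gene of chromosome 12, which held 99.1% of the (+) signal in both libraries and 99.7% and 99.5% of the (−) signal. The 200 bases of highest depth, chr19:37858749-37858948 on the (+) strand of mm9, are shown because they hold the coding sequence likeness, and no letters are marked.
chr19 window: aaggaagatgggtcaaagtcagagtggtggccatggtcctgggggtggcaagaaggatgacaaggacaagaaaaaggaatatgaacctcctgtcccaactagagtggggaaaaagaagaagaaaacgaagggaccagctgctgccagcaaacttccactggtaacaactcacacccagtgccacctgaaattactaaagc
The likeness runs in the (+) direction, and the higher strand of the window was (+) in both libraries.

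A window on chromosome 15 (chr15:98702001-98703000) was the most even without a gene, with 1.29 on (+) and 1.43 on (−) in JXO and 1.34 and 1.85 in OXJ, and 1 on chromosome 17 (chr17:35086001-35087000) had 3.19 and 1.38, and 2.03 and 0.522. In the latter, a (−) gene, *1110038B12Rik*, ends 183 bases upstream. Of the (+) signal of this window, 99.9% in JXO and 100% in OXJ lay in a stretch like *Slc23a1* of chromosome 18. That stretch has 207 bases at 90.3% identity to the transcript. Of the words of this window, 13.9% are found again elsewhere. Whether its (+) signal came from *Slc23a1* was not tested. The pair of windows chr8:44400001-44402000 had mean depths of 0.764 and 1.76 in JXO and 0.735 and 2.13 in OXJ, and 83.2% and 95% of their words are found again elsewhere.

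**Figure D5:**
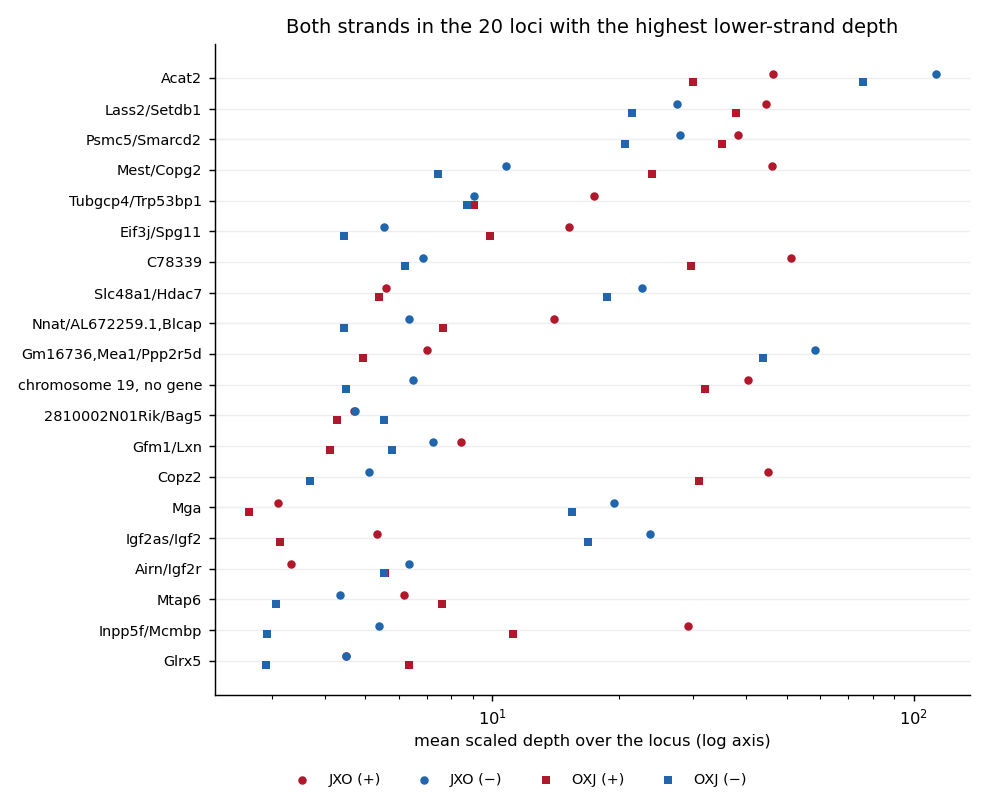
Mean scaled depth over the locus (horizontal, log axis) on either strand in both libraries for the 20 loci with the highest lower-strand depth, ordered by that depth. *Acat2* leads with 46.3 and 113 in JXO, followed by tail-to-tail pairs such as *Lass2*/*Setdb1* and *Psmc5*/*Smarcd2*.

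Gene lists drawn up from textbook knowledge were set against the 2.71% of all transcribed windows. Counted by genes, 186 of all 1052 genes with transcribed windows had both-strand windows. Of the HOX genes, which set position along the body axis, 32 had transcribed windows and 7 had both-strand windows (among them *Hoxa2*, *Hoxa3*, *Hoxa10*, *Hoxa11*, *Hoxb4* and *Hoxb6*), with 17 of 141 windows (12.1%). The list of imprinted loci, not all of whose genes are known for RNA of both strands, held 26 of 784 windows (3.32%). This share of windows was near that of all windows. Of its 41 genes with transcribed windows, 15 had both-strand windows. Fibroblast and matrix genes held 0 of 54 windows in 4 genes, which allows a share of up to 5.56% (3 of 54). Of 26 genes known as back-to-back pairs, 1 had transcribed windows, 4 in number with 0 kept, and no structural RNA gene had any. The HOX windows lie in few clusters and are not independent.

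The *Hoxa* genes are all on the (−) strand, and some of their both-strand windows held an annotated gene on the (+) strand and others did not. The 4 windows of *Hoxa2* (chr6:52112001-52116000) had mean (+) and (−) depths of 1.27 and 4.58 in JXO and 0.885 and 2.21 in OXJ. *Hoxa3* held 9 windows in 6 loci, and at its pair with *Gm15050* (chr6:52123001-52124000) the depths were 6.38 and 1.85 in JXO and 2.04 and 0.750 in OXJ. At *Hoxa11* and *Hoxa11as* (chr6:52196001-52197000) they were 3.55 and 0.405, and 1.88 and 0.365. The antisense strand was the higher in the window at the start of *Hoxa11*, most of which lies upstream of that gene, and in the *Gm15050* window. Over the exons of *Hoxa11* the sense depth was 8.7 in JXO and 4.03 in OXJ, beside antisense depths of 0.646 and 0.752. The sense strand was the higher over *Hoxa2* and at *Hoxa10* (chr6:52183001-52184000, with no annotated (+) gene). The *Hoxa10* window had 0.577 on (+) and 3.88 on (−) in JXO, and 0.266 and 1.94 in OXJ.

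In the *Hoxb* cluster, *Hoxb6* of the (+) strand had 3 windows opposite *0610040B09Rik*, and at chr11:96154001-96155000 the (+) and (−) depths were 4.56 and 5.20 in JXO and 2.94 and 1.66 in OXJ. *Hoxb4* had 1 window (chr11:96179001-96180000) with 2.07 on (+) in both libraries and 0.330 and 0.347 on (−). In *Kcnq1* (chr7:150482001-150483000), whose domain has a known antisense RNA, the (+) depth of the gene's strand was 0.858 in JXO and 0.347 in OXJ and the (−) depth 5.65 and 2.42.

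The crosses were compared on the summed depth of both strands after scaling the libraries to equal totals. A difference of at least 2-fold towards JXO was found in 13 of 250 both-strand windows (5.2%) against 4.91% of all transcribed windows, and towards OXJ in 1 (0.4%) against 1.22%. The median log2 ratio of JXO over OXJ was 0.27 in both-strand windows and 0.26 in all. Both-strand windows were thus close to all transcribed windows in how far the 2 libraries differed. With 1 library per cross this has no replicate check, and the counts move with the scaling, with 24 and 0 for the values as deposited and 5 and 7 with the median log2 ratio of all windows set to 0.

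The largest ratios towards JXO were in windows of *Hoxa2*/*Hoxa3* (chr6:52114001-52115000, log2 ratio 1.68), *Mettl9* (1.58), *Trnau1ap* (1.42), *Gm15050*/*Hoxa3* (1.39) and *Herc3*/*Nap1l5* (chr6:58855001-58856000, 1.30). In the *Hoxa2*/*Hoxa3* window the (+) and (−) depths were 0.967 and 5.05 in JXO and 0.375 and 1.29 in OXJ, and in the *Herc3*/*Nap1l5* window 1.78 and 4.65, and 0.317 and 1.99. Towards OXJ they were in *Tubgcp4*/*Trp53bp1* (chr2:121020001-121021000, −1.03), the next *Herc3*/*Nap1l5* window (chr6:58856001-58857000, −0.96), *Arhgef25* (−0.93), *Hand2* (−0.91) and *Rnf121* (−0.86). Neighbouring windows of *Herc3*/*Nap1l5* stood at opposite ends of this list, and all of these windows had a depth under 10 on either strand.

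In 15 of the 250 windows (6.0%, 3.4 to 9.7%) the higher strand was not the same in both libraries, and in 18 of all transcribed windows (0.195%). Such a change needs strands of similar depth, which the rule favours, so this contrast is no result. The 15 windows included those of *Nnat*/*Blcap*, *Gfm1*/*Lxn*, *Glrx5*, *Wdr76*, *Hoxb6*, *2210018M11Rik*, *Mab21l1*/*Nbea*, *Pik3ip1* and *2900052L18Rik*. At *Nnat*/*Blcap* (chr2:157388001-157389000) the lower share was 46.0% (38.1 to 54.0%) in JXO and 47.5% (37.6 to 58.4%) in OXJ, so both intervals reached 50% and the order of the strands was within counting error. At *Gfm1*/*Lxn* (chr3:67261001-67262000) they were 46.3% (37.5 to 56.0%) and 41.7% (31.7 to 53.6%), again within counting error. *Glrx5* had 50% (38.4 to 63%) in JXO and 31.5% (21.3 to 42.6%) in OXJ, where the (+) strand was the higher beyond counting error.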

How the data were processed

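Strand-marked, ribosome-depleted RNA of 1 JXO and 1 OXJ MEF line was analysed from 4 tracks, 1 per library and strand. Per the submitters' processing notes, CASAVA 1.9 and TopHat 1.2.0 were used, with mm9 as the genome build. The authors deposited log2 of 1 plus the depth scaled to 50000000 reads, with alleles unmarked. Here the log2 values were turned back into scaled depth, tracks named forward were read as (−) strand RNA, and depth was averaged over 1 kb windows. Genes were those of GENCODE M1. The chromosome names and lengths of the reference were compared with the tracks. No p-value was computed, since each cross has 1 library and the windows were chosen on these values.

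The rule, the gene lists and the alternatives were chosen with earlier results of these data known. Named loci are the 10 with the highest lower-strand depth, the 5 with most windows, the 4 highest of each layout, loci of listed genes, the windows nearest the 10% limit, up to 10 windows with unlike higher strands, and the 5 largest ratios in either direction. Other windows named were chosen after their values were seen. Copies were searched with BLAST 2.17.0 and with 50-base words. Some named loci are not reported here. Soft-masked repeats were not analysed here. The counting was tested on simulated data. Calculations ran in Python 3.11.15 (scipy 1.17.1, pandas 2.3.3, numpy 2.4.6), and figures were drawn with matplotlib 3.10.9.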

Additional observations from a re-analysis of the deposited data

Results flagged for a closer look

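Chromosomes X and Y lie outside the windows compared above. On chromosome X, 1 of 168 transcribed windows (0.595%) met the same rule, at X:160396001-160397000 inside *Zrsr2*, a splicing factor gene of the (−) strand. Its (+) and (−) depths were 1.73 and 14.3 in JXO and 2.41 and 11.6 in OXJ. On chromosome Y 0 of 2 transcribed windows met it.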

How the results depend on the processing

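Of 47 alternatives, 18 left the value within its limit and 29 moved it, and no test was run that could lose a call. For the counts that follow, brackets give the share of the windows transcribed under the same setting. The count of 250 both-strand windows (2.71%) became 401 (2.51%) with 500-base windows, 950 (10.3%) with a limit of 5% and 82 (0.89%) with 20%. It became 425 (3.29%) with a depth of 0.5 and 138 (2.15%) with a depth of 2. It was 4462 (48.4%) with the share of covered bases in place of depth and 2715 (29.5%) with means of log2 values. With bases covered by 1 read set to 0 it was 161 (1.87%). The rule gave 755 (6.69%) for JXO alone and 704 (7.09%) for OXJ alone. Alternatives chosen after seeing the data gave 121 windows (1.31%) with at least 10 read lengths on the lower strand. They gave 237 (2.66%) without repeated words and 229 (2.63%) without transcript-like copies too. Genes on both strands were found in 17.6% with coding genes (all transcribed windows 2.74%) and in 18% with exons (all 3.14%). They were found in 46.3% with a limit of 20% (all 6.74%). With at least 10 read lengths it was 40.5%, and the share of all windows under that setting rose to 12.4%. A start of each strand was found in 12.8% within 500 bases (all 1.68%). An end of each strand was found in 11.2% within 500 bases (all 1.59%) and in 10.7% with at least 10 read lengths (all 1.97%). Lower-strand signal on bases shared with the higher strand was 72.6% in JXO and 73.6% in OXJ with bases covered by 1 read set to 0, 81.1% and 82.6% with a limit of 20%, and 76.5% in JXO with the grid shifted by 500 bases. Windows past 2-fold towards JXO numbered 24 as deposited (9.6% against 9.85% of all transcribed windows). They numbered 5 with the median ratio set to 0 (2.0% against 1.78%) and 56 at 1.5-fold (22.4% against 23.2%). Towards OXJ the counts were 0 (0.0% against 0.618%), 7 (2.8% against 3.19%) and 15 (6.0% against 5.58%). The cause was not tested. No paired analysis was possible because each cross has 1 library and no test was run. Depth limits the thin lower strands, where 1 read was worth 0.652 in JXO and 0.579 in OXJ, and the tracks hold part of each library. Leaving out a replicate was not possible with 1 library per cross.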
